A study of Mus musculus with 6 samples.

Results

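The MAP kinase phosphatases examined here are 9 members of the dual-specificity phosphatase (Dusp) gene family: Dusp1, Dusp2, Dusp4, Dusp5, Dusp6, Dusp7, Dusp8, Dusp10 and Dusp16. They were taken from a fixed list of symbols and not from measured values, though the list was made with earlier results of these data known. All 9 were found among the 27179 Entrez gene IDs of the count files, and all 9 passed the filter that left 13202 genes for testing. Their transcripts were counted by RNA-seq in satellite cells, the resident stem cells of skeletal muscle, which were sorted from wild-type C57Bl/6N mice kept on a high-fat diet (3 libraries) or on chow (3 libraries). The genes lie on different chromosomes of GRCm38.p6: Dusp1 on chromosome 17 (26505591 to 26508472), Dusp2 on 2 (127336159 to 127338377), Dusp4 on 8 (34807610 to 34819894), Dusp5 on 19 (53529145 to 53541809), Dusp6 on 10 (99263231 to 99267489), Dusp7 on 9 (106368560 to 106375724), Dusp8 on 7 (142079487 to 142095907), Dusp10 on 1 (184034381 to 184075636) and Dusp16 on 6 (134715468 to 134807063). The series sets obese against lean mice. At least 50000 sorted cells went into each replicate. Age, sex, diet composition and feeding time are not given in the sources used here. Nor is it stated that replicates are different animals, so p-values measure only the spread among the 6 libraries, and part of that may be technical.

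MAP kinases (ERK, JNK and p38) are switched on when an upstream kinase phosphorylates a threonine and a tyrosine in the activation loop, and the Dusp enzymes switch them off by removing both phosphates. Several Dusp genes are themselves induced by the kinases they act on, which makes them negative feedback regulators. Dusp1, Dusp2, Dusp4 and Dusp5 encode inducible nuclear enzymes, Dusp6 and Dusp7 encode cytoplasmic enzymes that prefer ERK, and Dusp8, Dusp10 and Dusp16 encode enzymes that prefer JNK and p38. In satellite cells, ERK and p38 signalling take part in leaving quiescence and in the choice between proliferation and differentiation.

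Promoters are shown for the 3 members whose windows held a complete cyclic AMP response element or a serum response element, and for Btg2, an antiproliferative immediate early gene that fell on the high-fat diet and holds the same cyclic AMP response element. The promoters of Fos and Nr4a1, immediate early genes that also fell, were searched as well and held no complete cyclic AMP response element. Both of these promoters held its core, TGACG. The sequences shown are RefSeq's for GRCm38.p6, from 250 bases before to 50 bases after the transcription start, read 5′ to 3′ on the gene's strand. Capitals mark TGACGTCA, the cyclic AMP response element, in Dusp1 (chr17:26508423-26508722, minus strand), Dusp8 (chr7:142095235-142095534, minus strand) and Btg2 (chr1:134079106-134079405, minus strand), and the CArG boxes of the serum response element in Dusp5 (chr19:53528895-53529194, plus strand). The starts used for Dusp7, Dusp8 and Dusp16 lie inside the annotated genes, downstream of their 5′ ends. The window of Dusp16, not shown, was chr6:134792579-134792878 on the minus strand, in a gene that reaches 134807063.
Dusp1: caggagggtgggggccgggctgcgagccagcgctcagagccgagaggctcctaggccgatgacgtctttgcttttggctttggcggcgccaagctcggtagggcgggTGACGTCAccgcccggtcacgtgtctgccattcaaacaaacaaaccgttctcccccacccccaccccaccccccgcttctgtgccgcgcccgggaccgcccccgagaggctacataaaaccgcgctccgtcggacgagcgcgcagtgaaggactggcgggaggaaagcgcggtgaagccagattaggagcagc
Dusp8: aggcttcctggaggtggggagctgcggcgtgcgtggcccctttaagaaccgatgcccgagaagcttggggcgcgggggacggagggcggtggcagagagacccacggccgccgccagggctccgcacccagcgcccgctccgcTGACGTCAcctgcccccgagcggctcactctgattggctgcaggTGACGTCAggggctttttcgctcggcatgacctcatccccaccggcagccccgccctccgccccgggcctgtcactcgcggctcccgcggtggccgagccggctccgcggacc
Dusp5: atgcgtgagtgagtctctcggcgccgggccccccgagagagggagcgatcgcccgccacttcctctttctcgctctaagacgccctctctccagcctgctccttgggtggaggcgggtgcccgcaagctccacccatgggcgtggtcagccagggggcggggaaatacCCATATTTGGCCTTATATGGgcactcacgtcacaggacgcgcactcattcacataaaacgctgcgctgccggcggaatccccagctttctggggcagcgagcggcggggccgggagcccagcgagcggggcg
Btg2: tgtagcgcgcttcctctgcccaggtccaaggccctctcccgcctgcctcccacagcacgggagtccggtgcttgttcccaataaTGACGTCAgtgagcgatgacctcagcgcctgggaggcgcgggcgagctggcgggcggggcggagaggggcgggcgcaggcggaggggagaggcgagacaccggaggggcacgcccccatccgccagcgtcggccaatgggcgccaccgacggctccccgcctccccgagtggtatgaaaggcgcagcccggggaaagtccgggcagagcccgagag

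The promoter table matched 8 of the 9 members, all but Dusp4. The complete cyclic AMP response element was found at -143 to -136 from the start of Dusp1 and at both -107 to -100 and -63 to -56 of Dusp8, and 588 of 32851 promoters in the table (1.79%) held it. The adjoining CArG boxes of Dusp5 lay at -82 to -73 and -72 to -63, and 1.63% of promoters held a CArG box. The core TGACG, which lies inside TGACGTCA, was found in 5 of the 8 members (Dusp1, Dusp2, Dusp5, Dusp8 and Dusp16), against 20.8% of all promoters. The EGR site GCGNGGGCG was found in Dusp2 and Dusp16 (5.55% of promoters) and the E-box CACGTG in Dusp1 and Dusp2 (7.15%). The letters of the AP-1 site TGANTCA, the E-box CAGCTG, the ETS site CCGGAAGT and the TATA box TATAAA were in 0 of the 8 windows, where 7.81%, 16.3%, 3.89% and 13.6% of promoters held them. Both strands were searched, so a palindrome counts at the same place on each strand. These matches describe letters in a window and do not show binding.

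Total counts ran from 14930394 to 18217818 on the high-fat diet and from 15977166 to 17690342 on chow, and 3 counts, the floor used for a gene at 0, came to 0.162 to 0.195 CPM, the unit used throughout for counts normalised to library size. Floors cover counting error only. The 10 satellite cell markers summed to 4200 to 5159 CPM on the high-fat diet and to 4767 to 5511 CPM on chow. Of the other cell types, fibro-adipogenic progenitor markers summed to 1173 to 1447 CPM against 1062 to 1218 CPM, smooth muscle and pericyte markers to 619 to 887 CPM against 732 to 873 CPM, and endothelial markers to 236 to 372 CPM against 258 to 337 CPM. Notch3 alone made up most of the smooth muscle and pericyte sum, averaging 539 CPM on the high-fat diet and 599 CPM on chow. Gsn led the progenitor markers (362 and 345 CPM) and Tek the endothelial markers (161 and 172 CPM). Leukocyte markers summed to 7.77 to 29.5 CPM against 21.6 to 49.7 CPM, with Adgre1, Cd52, Tyrobp and Cd3e at 0 in all 6 libraries. Schwann cell markers summed to 12.7 to 26.4 CPM against 12.6 to 45.8 CPM, mature myofibre markers to 9.91 to 24.3 CPM against 19.97 to 32.3 CPM, and red blood cell markers to at most 1.79 CPM against at most 1.84 CPM. Of the 50 markers tested, 0 passed in edgeR's test over all genes and 5 had an unadjusted p under 0.05, while 1 passed with DESeq2 and 1 with limma-voom, in both cases Pax7. This transcription factor of satellite cells was at 234 ± 57.3 CPM on the high-fat diet and 402 ± 29.8 CPM on chow (SD, n = 3 each, edgeR adjusted p = 0.180). Itga7, another satellite cell marker, was higher, at 369 ± 42.3 CPM against 245 ± 45.5 CPM (edgeR adjusted p = 0.328). Of the 10 satellite cell markers, log2 fold changes were negative for 5 and positive for 5, with a median of -0.04. The part of the markers in the values below was not tested. In earlier results of these data, high-fat diet library 1 and chow library 3 stood apart along the first principal component. These libraries also had the fewest genes detected, 13879 and 13655, against 14939 to 15467 in the other 4.

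None of the phosphatases was called changed. In edgeR's quasi-likelihood test of high-fat diet against chow with Benjamini-Hochberg adjustment over 13202 genes, 0 of 9 members passed an adjusted p of 0.05, where 34 of all genes tested (0.258%) did. DESeq2, which gave no p for Dusp2, called 0 of the other 8 members, and limma-voom called 0 of 9, against 1.51% and 0.75% of all genes. At an unadjusted p under 0.05 there was 1 member, Dusp8, against 7.65% of all genes. Log2 fold changes were negative for 5 members and positive for 4, with a median of -0.10, beside a median of -0.01 and 50.5% negative over all tested genes. The values of the diets did not overlap for 2 members, Dusp8 (lower) and Dusp10 (higher), which compares with 15.3% of all genes. A missed threshold does not show that a transcript was equal between the diets, and the intervals given below say how large a change the data allow. In bulk samples, fewer cells that express a gene and less RNA per cell cannot be told apart.

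**Figure D1:**
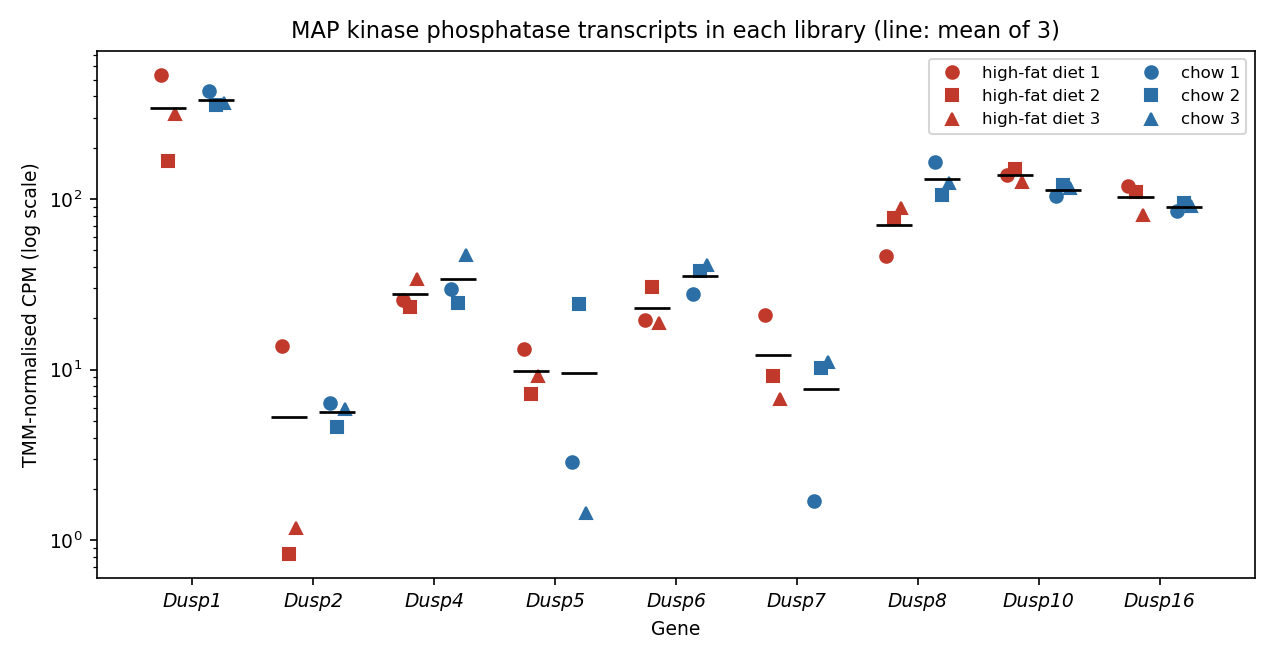
TMM-normalised CPM (log scale) of the 9 MAP kinase phosphatase genes in each library, with high-fat diet in red left of chow in blue, a symbol for each replicate number and a line at the mean of 3 libraries. Dusp8 sits between 46.5 and 88.9 CPM on the high-fat diet, below all chow libraries, and Dusp1 spreads from 167 to 537 CPM on the high-fat diet.

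Dusp8, whose product acts on JNK and p38 and has been studied in brain and heart, gave the smallest p of the 9. It was at 46.5, 77.5 and 88.9 CPM in high-fat diet libraries 1, 2 and 3, against 165, 105 and 124 CPM in chow libraries 1, 2 and 3. All 3 values on the high-fat diet were lower than the lowest on chow, an order that 7.87% of all genes showed in this direction. Mean levels were 70.9 ± 21.9 CPM on the high-fat diet and 131 ± 30.8 CPM on chow (SD, n = 3 each). The log2 fold change was -0.89 (SE 0.28, 95% interval -1.48 to -0.30), a 1.85-fold lower level, with an edgeR p of 0.00631 and an adjusted p of 0.322. It ranked 258th of the 13202 genes by p. Leaving out 1 library at a time gave log2 fold changes from -1.08 to -0.65 and adjusted p from 0.223 to 0.677. The lowest adjusted p over all alternatives, 0.0764, came with no filter on low counts. The annotated span of Dusp8 overlaps that of the long noncoding RNA gene Gm32786, which was not among the counted gene IDs. Whether exons are shared was not examined, so how far its reads enter the counts of Dusp8 is not known.

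Dusp10, also selective for JNK and p38, had the lowest biological coefficient of variation of the 9. It was at 139, 151 and 126 CPM in high-fat diet libraries 1, 2 and 3 and at 104, 120 and 117 CPM in chow libraries 1, 2 and 3. All high-fat diet libraries lay above all chow libraries, as for 7.42% of all genes, but the gap was small: 126 CPM in the lowest high-fat diet library against 120 CPM in the highest chow library. Its log2 fold change was 0.28 (SE 0.20, 95% interval -0.15 to 0.71), with an edgeR adjusted p of 0.876. Over the alternatives it stayed between 0.21 and 0.35.

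Dusp16, the third of the enzymes for JNK and p38, which shuttles between nucleus and cytoplasm, was at 119, 111 and 80.4 CPM on the high-fat diet and at 85.4, 94.8 and 91.4 CPM on chow. High-fat diet library 3 lay below all chow libraries and the other 2 above them. Its log2 fold change was 0.19 (SE 0.23, 95% interval -0.30 to 0.69, edgeR adjusted p = 0.975). Between Dusp16 and Dusp10 the root-mean-square difference of log2 CPM values centred on each gene's mean was 0.14, the smallest among all pairs of members. The next pair, Dusp4 and Dusp10, differed by 0.46. This measure is not scaled to how much a gene varies. Dusp10 and Dusp16 had the smallest SDs of the members over the 6 libraries (0.188 and 0.217), so their closeness does not show a shared pattern. The span of Dusp16 overlaps those of the noncoding genes Gm36328 and 1700055D16Rik, which were not among the counted gene IDs.

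Dusp8 was also set beside the other enzymes of its class. The log2 CPM of Dusp8 minus the mean of Dusp10 and Dusp16 in high-fat diet libraries 1, 2 and 3 came to -1.46, -0.74 and -0.18, against 0.81, -0.02 and 0.26 in chow libraries 1, 2 and 3. The values of the diets did not overlap. As Dusp8 (lower) and Dusp10 (higher) each did not overlap alone, this gives no separate support. The differences are not corrected for gene length. The contrast was chosen after the values were seen and is given as a description.

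**Figure D2:**
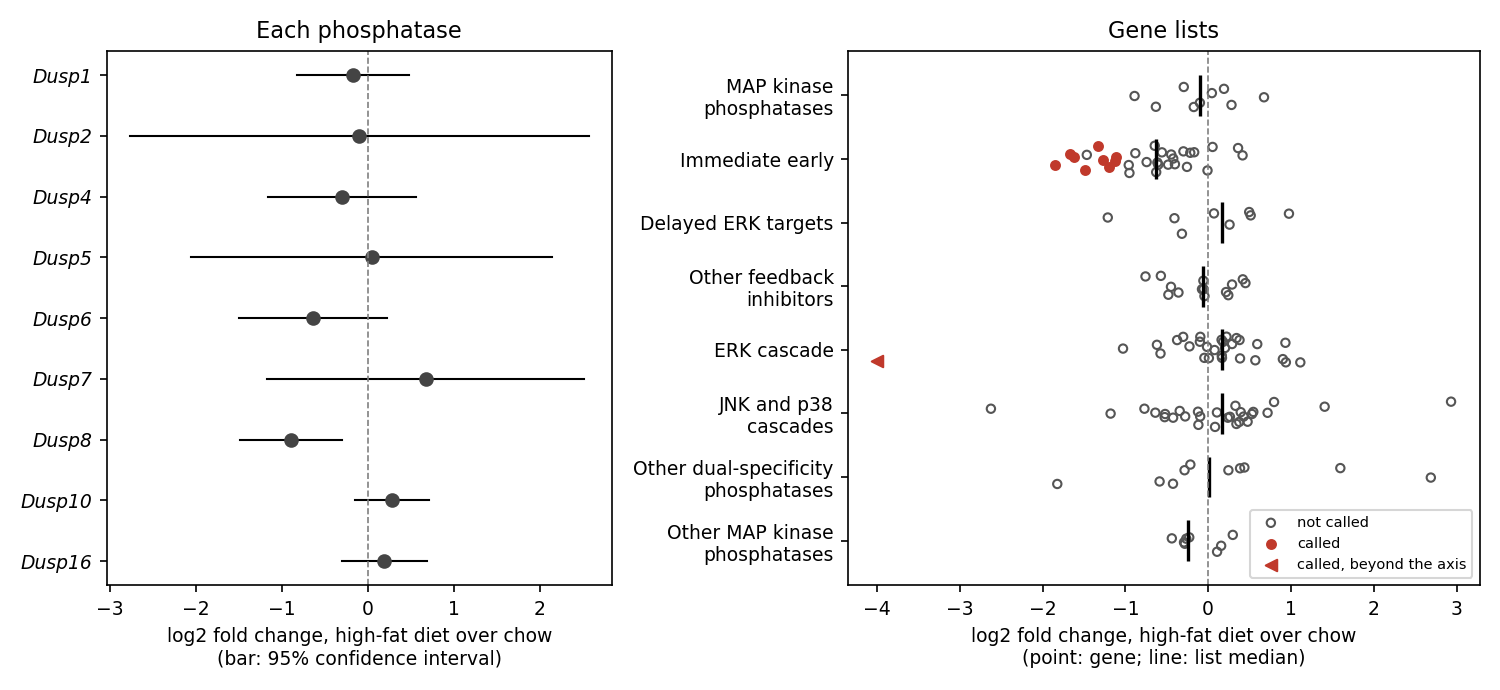
Left, log2 fold change of high-fat diet over chow for each phosphatase with its 95% confidence interval, of which that of Dusp8 (-1.48 to -0.30) lies below 0. Right, log2 fold changes of all tested genes of 8 lists, with the list median as a line and called genes filled. Of the immediate early genes, 9 are called lower, and the triangle stands for Ksr2 beyond the axis.

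Dusp1, the best studied of the family and an immediate early gene that acts on p38 and JNK, was the most abundant member. It was at 537, 167 and 317 CPM in high-fat diet libraries 1, 2 and 3, against 428, 357 and 367 CPM in chow libraries 1, 2 and 3. The highest and the lowest of all 6 libraries were both high-fat diet libraries. They spread 3.22-fold from lowest to highest, against 1.20-fold in chow. Means were 340 ± 186 CPM and 384 ± 38.5 CPM (SD, n = 3 each). The log2 fold change was -0.17 (SE 0.30), with an edgeR adjusted p of 0.995 and a 95% interval of the fold from 0.565 to 1.39.

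Dusp1 also varied more between libraries of a diet than most genes of its level. Its biological coefficient of variation in edgeR was 27.9%, the median of the 500 tested genes nearest to it in mean level was 18.8%, and 497 of these 500 varied less. For Dusp8 it was 26.1% beside 23.9% (402 of 500 lower), and for Dusp10 20.5% beside 22.6% (28 of 500 lower). The estimate for Dusp1 rests on 3 libraries per diet, of which high-fat diet libraries 1 and 2 are the extremes. Its log2 fold change was -0.66 without high-fat diet library 1, and 0.15 without high-fat diet library 2, with edgeR adjusted p values over all 6 such fits between 0.612 and 1.00.

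The immediate early genes gave the frame for Dusp1, which is induced together with them. Of 31 listed genes 9 fell in edgeR and 0 rose, against 0.167% of all genes called lower and 0.0909% called higher, with a median log2 fold change of -0.63. The list was compiled with earlier results of these data known. Fos, the AP-1 subunit, was at 922, 506 and 1031 CPM in high-fat diet libraries 1, 2 and 3, against 2348, 2310 and 2232 CPM in chow libraries 1, 2 and 3. Btg2 was at 106, 117 and 186 CPM on the high-fat diet and at 421, 422 and 420 CPM on chow. For both genes all high-fat diet libraries lay below all chow libraries, and their log2 fold changes were -1.49 (SE 0.21, edgeR adjusted p = 0.00947) and -1.63 (SE 0.21, adjusted p = 0.00521). Nr4a1, an orphan nuclear receptor, and the zinc finger factor Egr1 changed by -1.85 (SE 0.21, adjusted p = 0.00297) and -1.33 (SE 0.17, adjusted p = 0.00474). The count depended on the test and on single libraries. It was 13 with DESeq2 (1.51% of all genes called), 11 with limma-voom (0.75%) and 12 with no filter on low counts (0.839%). It was 1 with glmTreat against a 1.5-fold change (0.0454%), where Nr4a1 passed and not Fos, Btg2 or Egr1. It was 4 without high-fat diet library 2 (0.0641% of all genes called), 4 without chow library 2 (0.0722%) and 3 without chow library 3 (0.0706%), where Fos had an edgeR adjusted p of 0.0641. Without both libraries that stood apart 0 of the 31 passed in edgeR (0.00722% of all genes), with a median of -0.73.

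Set against this list, Dusp1 differed most in a single library. The mean log2 CPM of the 31 genes in high-fat diet libraries 1, 2 and 3 came to 7.71, 7.42 and 8.03, against 8.47, 8.53 and 8.44 in chow libraries 1, 2 and 3. Dusp1 minus this mean was 1.36, -0.04 and 0.28 on the high-fat diet and 0.27, -0.05 and 0.08 on chow. These offsets are not corrected for gene length, so they bear on libraries and not on which gene is more abundant. They ran from -0.05 to 0.28 in 5 of the 6 libraries and stood at 1.36 in high-fat diet library 1. The difference between the diets was 0.44 on the log2 scale, beside an SD of 0.736 among high-fat diet libraries and 0.162 among chow libraries, and the groups overlapped. An exact permutation test of 3 against 3 cannot give a p below 0.1 and decides nothing here.

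**Figure D3:**
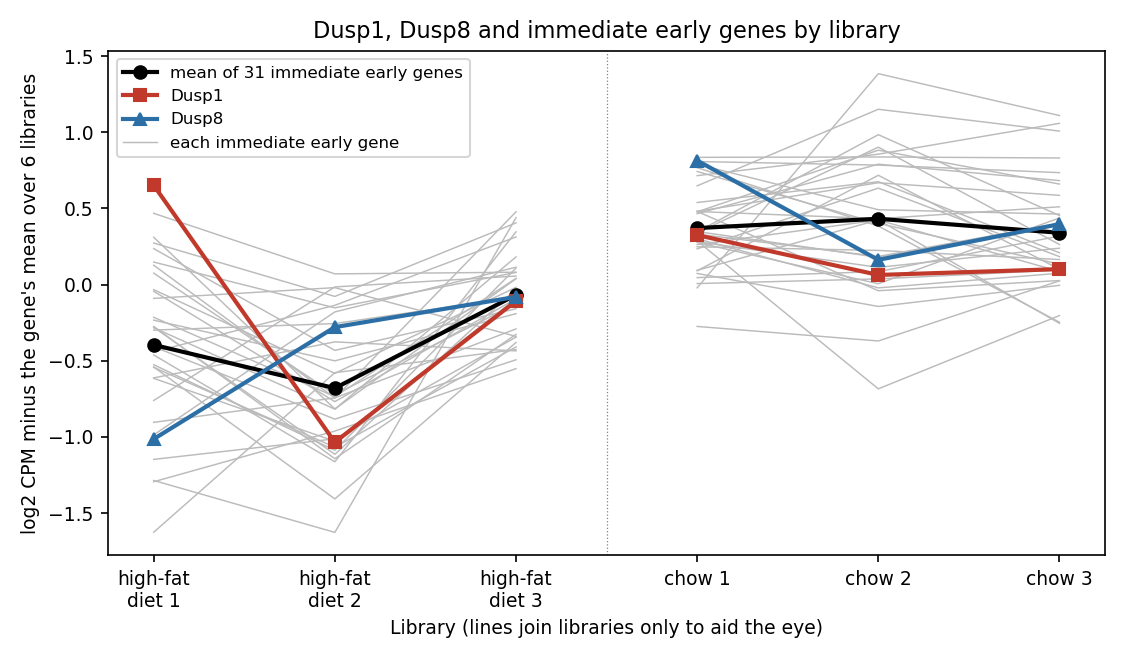
Log2 CPM of each gene minus its mean over the 6 libraries, with high-fat diet libraries left of chow libraries. Grey lines are the 31 immediate early genes, black their mean, red Dusp1 and blue Dusp8. Dusp1 peaks in high-fat diet library 1, while the list's mean is lower in every high-fat diet library (7.42 to 8.03 log2 CPM before centring) than in any chow library (8.44 to 8.53).

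The other inducible nuclear enzymes were far less abundant. Dusp4, which acts on ERK and JNK, was at 25.6, 23.2 and 34.0 CPM on the high-fat diet and at 29.8, 24.7 and 47.3 CPM on chow. The groups overlapped, and chow library 3 was the highest. Its log2 fold change was -0.29 (SE 0.40, 95% interval -1.16 to 0.57, edgeR adjusted p = 0.986), and without chow library 3 it was 0.02.

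Dusp2, first described in activated lymphocytes, was at 13.7, 0.831 and 1.19 CPM in high-fat diet libraries 1, 2 and 3, against 6.34, 4.61 and 5.91 CPM in chow libraries 1, 2 and 3. These values rest on 211, 13 and 22 counts on the high-fat diet and on 101, 79 and 103 counts on chow. High-fat diet library 1 was the highest of all and the other 2 high-fat diet libraries were the lowest, a 16.5-fold range within the diet. The log2 fold change was -0.10 (SE 1.24, 95% interval -2.77 to 2.57, edgeR adjusted p = 1.00). Without high-fat diet library 1 it was -2.46, and the lowest edgeR adjusted p with a library left out was 0.890.

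Dusp5, a nuclear enzyme specific for ERK, was at 13.3, 7.23 and 9.17 CPM on the high-fat diet, against 2.89, 24.4 and 1.44 CPM in chow libraries 1, 2 and 3. Here the chow libraries spread 17.0-fold: chow library 2 was the highest and the other 2 were the lowest of the 6. Over chow, the log2 fold change was 0.04 (SE 0.98, 95% interval -2.05 to 2.14, edgeR adjusted p = 1.00). Without chow library 2 it was 2.19, with all other 5 libraries then ordered by diet, and that difference did not pass either (lowest adjusted p with a library left out, 0.728).

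Of the cytoplasmic enzymes, Dusp6, the classical feedback phosphatase of ERK downstream of growth factor receptors, was at 19.4, 30.6 and 18.9 CPM on the high-fat diet and at 27.9, 37.95 and 40.9 CPM on chow. Only high-fat diet library 2 reached into the range of chow. The log2 fold change was -0.63 (SE 0.40, 95% interval -1.49 to 0.23, edgeR adjusted p = 0.834) and was negative under every alternative tried, from -0.90 to -0.40. The span of Dusp6 overlaps that of the noncoding gene Gm34921, which was not among the counted gene IDs.

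Dusp7, which also prefers ERK in the cytoplasm, was at 20.8, 9.21 and 6.69 CPM in high-fat diet libraries 1, 2 and 3, against 1.70, 10.3 and 11.03 CPM in chow libraries 1, 2 and 3. High-fat diet library 1 was the highest and chow library 1, with 27 counts, the lowest. A log2 fold change of 0.67 (SE 0.86, 95% interval -1.17 to 2.52, edgeR adjusted p = 0.981) was found with all libraries, and of 0.06 without high-fat diet library 1. Dusp1, Dusp2, Dusp7 and Dusp16 thus all had their highest value in high-fat diet library 1, where Dusp8 had its lowest.

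**Figure D4:**
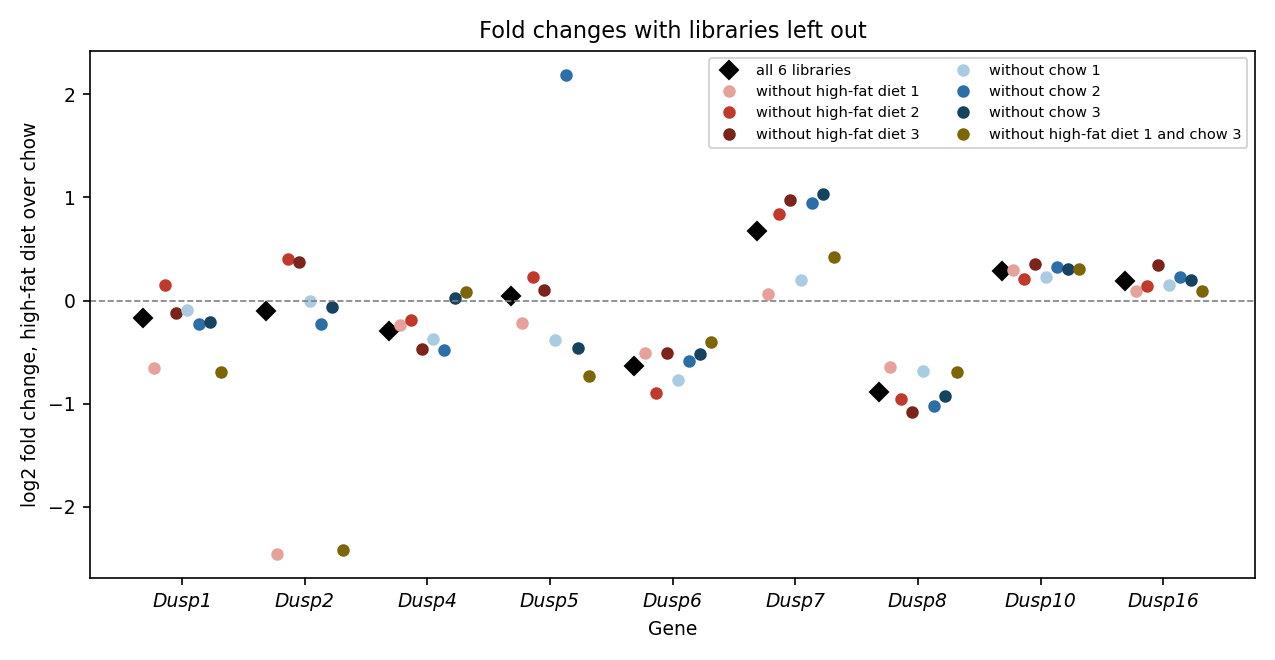
Log2 fold change of high-fat diet over chow for each phosphatase with all 6 libraries (black diamonds), with each library left out in turn and without both libraries that stood apart. Dusp6 and Dusp8 are below 0 and Dusp7, Dusp10 and Dusp16 above 0 in every fit shown, while Dusp1, Dusp2, Dusp4 and Dusp5 lie on both sides.

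Levels were compared between members per kilobase of exon (union of GENCODE M21 exons). Dusp1 led with 103 ± 56.2 CPM per kb on the high-fat diet and 116 ± 11.6 CPM per kb on chow, followed by Dusp10 with 45.5 ± 4.12 and 37.4 ± 2.82 CPM per kb. In all 6 libraries Dusp1 lay above Dusp10, by the least in high-fat diet library 2, at 50.3 against 49.6 CPM per kb. On the high-fat diet, Dusp8 (14.6 ± 4.50), Dusp16 (13.3 ± 2.60), Dusp4 (10.1 ± 2.07) and Dusp6 (7.34 ± 2.12 CPM per kb) overlapped with their neighbours in this order, and Dusp6 lay above Dusp5 in every library. On chow, Dusp8 (27.0 ± 6.32 CPM per kb) lay above Dusp4 (12.4 ± 4.33), Dusp16 (11.6 ± 0.610) and Dusp6 (11.4 ± 2.17 CPM per kb) without overlap. The last 3 could not be ordered beyond their spread. Dusp5, Dusp7 and Dusp2 averaged between 2.28 and 3.998 CPM per kb in both diets and were not separable from each other.

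Dusp1 alone made up 47.9% ± 14.3 of the summed level per kilobase of the 9 genes on the high-fat diet and 51.5% ± 3.42 on chow (SD, n = 3 each). By library the share was 60.8%, 32.6% and 50.3% on the high-fat diet and 55.5%, 49.6% and 49.6% on chow. The enzymes for JNK and p38 together made up 26.4%, 51.6% and 36.7% on the high-fat diet, against 34.0%, 33.7% and 33.8% on chow. In this share the chow libraries differed by less than any pair of high-fat diet libraries, which lay on both sides of them. With the length of the longest transcript in place of the exon union, the most abundant pair was again Dusp1 and Dusp10, and Dusp16 moved ahead of Dusp8 on the high-fat diet.

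The 5 genes with the pattern closest to that of Dusp8, the member with the smallest p, were Cdon, Vsig10, Snord14e, Parp14 and Alms1, at root-mean-square differences from 0.12 to 0.13 in centred log2 CPM over the 6 libraries. The search covered 6997 genes whose mean level was 10 CPM or more. Cdon, a cell surface protein that promotes myogenic differentiation, was at 138, 216 and 289 CPM in high-fat diet libraries 1, 2 and 3, against 431, 283 and 313 CPM in chow libraries 1, 2 and 3. Like Dusp8 it was lowest in high-fat diet library 1 and highest in chow library 1, a likeness that follows from how it was chosen. The edgeR adjusted p values of the 5 ran from 0.291 to 0.687.

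The kinases that these phosphatases act on, and the cascades above them, gave few calls. Of 29 tested genes of the ERK cascade 1 fell and 0 rose, against 0.167% of all genes called lower and 0.0909% called higher, with a median log2 fold change of 0.16. The called gene was Ksr2, a scaffold of the cascade, which had 0 counts in all 3 high-fat diet libraries and 420, 95 and 131 counts in chow libraries 1, 2 and 3. With 3 counts per library as the floor, it was at least 71.9-fold lower on the high-fat diet (edgeR adjusted p = 0.0373). This bound rests mostly on chow library 1, without which, as computed after seeing the data, it was at least 35.7-fold. The gene passed with DESeq2 as well, but not with limma-voom (adjusted p = 0.141), with edgeR's glmTreat against a 1.5-fold change (0.0949) or without high-fat diet library 1 and chow library 3 together (0.170). The call was also lost in each of the 6 fits with a library left out, where the adjusted p ran from 0.0539 to 0.423.

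Of 28 tested genes of the JNK and p38 cascades 0 passed in edgeR, DESeq2 or limma-voom, and 5 had an edgeR p under 0.05 before adjustment, against 7.65% of all genes. The list's median log2 fold change was 0.17. The smallest p values were those of Map3k6, an upstream kinase, at 85.9 ± 13.7 CPM on the high-fat diet and 134 ± 27.9 CPM on chow (edgeR adjusted p = 0.447), and Map2k3, which activates p38, at 227 ± 27.2 CPM and 156 ± 36.1 CPM (adjusted p = 0.502).

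The other feedback inhibitors of receptor and ERK signalling gave 0 calls in edgeR among 14 tested, with 4 at an unadjusted p under 0.05 (7.65% of all genes) and a median log2 fold change of -0.06. Errfi1, which restrains the epidermal growth factor receptor, was at 4256, 3141 and 3179 CPM in high-fat diet libraries 1, 2 and 3, against 5570, 5019 and 5129 CPM in chow libraries 1, 2 and 3. Its groups did not overlap, and its log2 fold change was -0.57 (SE 0.14, edgeR adjusted p = 0.166). It was the 1 gene of the list called by DESeq2 (adjusted p = 0.00467) and by limma-voom (adjusted p = 0.000104), and it passed in edgeR without high-fat diet library 1 (adjusted p = 0.0389). Spry1, a Sprouty inhibitor, was at 91.2 ± 20.8 CPM on the high-fat diet and 154 ± 24.9 CPM on chow (edgeR adjusted p = 0.318).

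Delayed ERK target genes gave 0 calls among 8 tested in edgeR, DESeq2 and limma-voom, with 2 at an unadjusted p under 0.05 (7.65% of all genes), and these lay on opposite sides. Phlda1 was at 24.7 ± 3.28 CPM on the high-fat diet and 57.2 ± 19.5 CPM on chow (edgeR adjusted p = 0.286), and the cyclin gene Ccnd1 at 130 ± 44.6 CPM and 66.3 ± 21.6 CPM (adjusted p = 0.322). Ccnd1 passed with no filter on low counts (adjusted p = 0.0261).

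Of 18 other dual-specificity phosphatase genes 10 were tested and 0 passed in edgeR, with 0 at an unadjusted p under 0.05 and 0 called by DESeq2 or limma-voom. Dusp9, the remaining MAP kinase phosphatase of this family, had 9 counts in high-fat diet library 2 and 0 in the other 5 libraries and was not tested. The smallest p was that of Dusp22, at 2.32 ± 0.873 CPM on the high-fat diet and 8.24 ± 2.29 CPM on chow (edgeR adjusted p = 0.807), followed by Dusp26, at 2.17 and 0.330 CPM (adjusted p = 0.939). Among other phosphatases that act on MAP kinases 0 of 8 passed in edgeR, DESeq2 or limma-voom, with 0 at an unadjusted p under 0.05. The catalytic subunit gene Ppp2ca was at 331 ± 48.1 CPM on the high-fat diet and 397 ± 40.6 CPM on chow (edgeR adjusted p = 0.846), and the scaffold subunit gene Ppp2r1b at 72.9 ± 8.84 and 98.9 ± 21.9 CPM (adjusted p = 0.765).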

How the data were processed

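RNA-seq measured transcripts in 6 libraries of sorted satellite cells, from total RNA with an integrity number of 8.5 to 9.4, with ribosomal RNA depletion and 75-bp single reads, per the labels. The authors deposited whole-number read counts per Entrez gene ID, 1 file per library, with no normalization. Bowtie2, featureCounts and the builds GRCm38 and mm10 are named in the submitters' processing notes. Their versions, the strand setting, the annotation release and how multiply mapped reads were counted are not given in the sources used here. RefSeq's gene table of GRCm38.p6 gave a symbol to 25275 of 27179 IDs. The report gives the range of total counts in each diet.

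The counts were tested with edgeR 4.0.16 in R 4.3.3 (filterByExpr with a minimum count of 10, TMM scaling, glmQLFit and glmQLFTest, two-sided, diet as the only factor) and Benjamini-Hochberg adjustment over all tested genes, with a threshold of 0.05. Standard errors are the absolute log2 fold change over the square root of F, and 95% intervals use the test's degrees of freedom. Levels are TMM-normalised CPM. Centred log2 CPM used a prior count of 2. DESeq2 1.42.0 and limma 3.58.1 served as alternatives, beside other scalings and filters, a test against a 1.5-fold change, and libraries left out. All pairs of libraries differed by more than sampling noise. The fit was tested on simulated data.

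The members, the gene lists and the choice of libraries to leave out together were made with earlier results of these data known. All 9 members were named. Of each gene list, at most 4 called genes are given, those of smallest p, or where none was called the 2 genes of smallest p. Dusp9, Pax7 and Itga7 were added after their values were seen. Genes like Dusp8 were the 5 with the smallest root-mean-square difference, leaving out predicted genes and pseudogenes. A planned comparison of protein sequences was not run.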

Additional observations from a re-analysis of the deposited data

How the results depend on the processing

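The count of 0 called phosphatases held under all 18 alternatives tried: 3 other scalings, no filter, a stricter filter, DESeq2, limma-voom, robust estimates, glmTreat, the replicate number as a block, an adjusted p under 0.1, each library left out, and both libraries that stood apart left out. DESeq2 gave no p for Dusp2. The count over all genes was 34. It was 163 with no filter, 198 with DESeq2, 99 with limma-voom and 6 with glmTreat against a 1.5-fold change, between 9 and 44 with 1 library left out, and 1 without both high-fat diet library 1 and chow library 3. Correlations of same-numbered libraries' deviations from their diet means were 0.02, 0.03 and -0.03, and those of other pairs ran from -0.06 to 0.03. Libraries 1 and 2 of each diet correlated best with their own number and library 3 did not. These small values cannot decide whether the replicate numbers pair the libraries. With the replicate block 45 genes and 0 members were called, and Ksr2 did not pass (edgeR adjusted p = 0.0594).

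With 1 library left out, the log2 fold change ran from -0.66 to 0.15 for Dusp1, from -2.46 to 0.40 for Dusp2, from -0.48 to 0.023 for Dusp4 and from -0.46 to 2.19 for Dusp5, so that the sign of these 4 depended on single libraries. Without chow library 3 it was 0.023 for Dusp4, and without both libraries that stood apart it was 0.083 for Dusp4 and -0.73 for Dusp5. The other 5 members kept their sign under all 18 alternatives. The size depended on the tool as well: for Dusp2 it was -1.26 with limma-voom and -1.32 with the replicate block, against -0.10 in edgeR, and for Dusp5 it was 1.01 and 1.22, against 0.04. The cause of these changes was not tested. Depth limits Dusp2, Dusp5 and Dusp7 most, with as few as 13, 25 and 27 counts in a library.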
